A study of Mus musculus with 44 samples.

Results

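Voltage-gated sodium channels were followed here through 7 genes, the 4 alpha subunits Scn1a, Scn2a, Scn3a and Scn8a and the 3 beta subunits Scn2b, Scn3b and Scn4b, in ribosome-bound RNA from the mouse hippocampus. They were chosen by family membership and not by any measured change, although earlier results of these data were known. They are the rows of the deposited count table whose Ensembl identifiers carry those symbols in the GENCODE annotation of GRCm38. All 7 were found among the 55335 genes of the table, and all 7 passed the filter on low counts in each of the 8 comparisons made. The alpha subunit forms the pore: its membrane-spanning voltage sensors open it when the neuron depolarizes, and a short loop on the cytoplasmic side then plugs it, which ends the inward sodium current of the action potential. Beta subunits are single-pass membrane proteins of the immunoglobulin family that set how fast and at which voltage the channel gates and where it sits on the membrane. In hippocampal pyramidal and granule cells the channels are packed into the axon initial segment, where action potentials begin.

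The study asked how exercise early in life alters the RNA being translated in hippocampal excitatory neurons. Male Emx1-NuTRAP mice came from Emx1-IRES-Cre mothers and NuTRAP fathers, so that cells with an Emx1 history carried GFP-tagged ribosomes, which were pulled down in a step called TRAP, and biotin-tagged nuclei. Littermates were housed in pairs either with a running wheel from postnatal day 21 to 41 (early-life exercise, ELE) or without one (sedentary), and tissue was taken on the following day. In the simultaneous design (SIT) nuclei and ribosomes came from both hippocampi of the same mouse, with 4 ELE and 4 sedentary libraries, of which 3 and 2 were compared after the study set 3 aside, the 3 being identified here by matching mean counts to the study's gene lists. In the separate design ribosomes came from the left or the right hippocampus alone, the opposite side going to nuclei, with 3 ELE and 3 sedentary libraries on each side. Each library came from a different mouse. Emx1-driven Cre acts from development onward, so that the tag records lineage and not present Emx1 expression. Besides excitatory neurons it also marks neural progenitors, and the paper states that it can be expressed in astrocytes of the striatum. In hippocampal flow cytometry the paper found no distinct population positive for both GFP and the astrocyte marker S100β. Because these are bulk libraries, fewer cells of a type and less RNA per cell cannot be told apart in any value given here.

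Library totals ranged from 45895097 to 65767802 counts over the 20 TRAP libraries, so that even the scarcest of the 7 genes was counted at least 528 times in every one (Scn4b). The excitatory markers Slc17a7, Camk2a, Neurod6, Emx1 and Tbr1 were present in all of them, with a summed level of 6098 to 9379 CPM, the count scaled by the size of its library. A pair of SIT sedentary libraries, both from NT7.2 mice, stood apart and are among the 3 set aside by the study. Their summed level of 7 inhibitory interneuron markers (Gad1, Gad2, Slc32a1, Pvalb, Sst, Vip and Lhx6) was 844 and 883 CPM against 40.9 to 109 CPM in the 18 other libraries, and mitochondrial genes took 8.64 and 9.64% of their counts against 0.0704 to 0.523%. Microglial markers (125.5 and 134 CPM summed over 4 genes, against 1.5 to 7.19 CPM) and oligodendrocyte markers (3664 and 4123 CPM over 4 genes, against 1808 to 3053 CPM) stood apart in the same pair. Levels below are therefore given over the 17 libraries compared, and the SIT results for the 7 genes are given with and without the 3 that were set aside.

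The alpha subunits are near copies of each other in the parts of the protein that do the gating, which bears on how well their reads can be told apart. Exact identity over the length of a read was nevertheless rare. Of all stretches of 100 bases in its annotated transcripts, Scn1a shared 0.876%, Scn2a 1.03% and Scn3a 2.22% exactly with one of the other 2 or with Scn9a, and Scn8a and the 3 beta genes shared none with any gene. Reads from the shared stretches could be lost or split between those 3 alpha genes. Genes annotated on the opposite strand within Scn1a, Scn2b, Scn3a and Scn3b reached at most 0.572 CPM in any library, and the authors' counting took strand into account.

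The first question is how much of each channel message the TRAP libraries held. The 17 libraries also held glial markers, summing to 1808 to 3053 CPM for 4 oligodendrocyte genes and 1684 to 5071 CPM for 5 astrocyte genes. How much of each channel message came from such cells was not tested. Levels were divided by the exonic length of the gene. By this scale the beta subunits Scn2b and Scn3b led among the 7, followed by the alpha subunits Scn8a and Scn2a, while Scn4b, Scn1a and Scn3a were scarce. Scn2b, which is joined to the alpha subunit by a disulfide bond (ENSMUSG00000070304.12, chr9:45117782-45130070, plus strand), averaged 89.6 ± 8.80 CPM per kb (SD, n = 17). Scn3b, which associates without a covalent bond (ENSMUSG00000049281.16, chr9:40269217-40291618, plus strand), averaged 53.4 ± 7.0 CPM per kb. Across the 17 libraries the lowest Scn2b level lay above the highest Scn3b level, and the lowest Scn3b level above the highest Scn8a level. Scn8a, the alpha subunit of nodes of Ranvier and of mature initial segments (ENSMUSG00000023033.14, chr15:100869858-101045938, plus strand), averaged 26.6 ± 2.84 CPM per kb. Scn2a, which supports initiation early in development and conduction in unmyelinated axons (ENSMUSG00000075318.12, chr2:65620771-65767447, plus strand), averaged 20.5 ± 2.41 CPM per kb. Their ranges overlapped over libraries, but Scn8a was the higher of the 2 in 17 of 17 libraries, by 1.3 times on average.

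Below Scn2a the level dropped by a factor of 5.18 to the 3 scarce genes. Scn4b, whose cytoplasmic tail is known as the open-channel blocker of resurgent sodium current (ENSMUSG00000046480.6, chr9:45138395-45154152, plus strand), averaged 3.97 ± 0.96 CPM per kb. Scn1a, best known as the main alpha subunit of fast-spiking interneurons (ENSMUSG00000064329.13, chr2:66270778-66440840, minus strand), averaged 3.13 ± 0.60 CPM per kb. Scn3a, which is abundant in the embryonic brain and declines after birth (ENSMUSG00000057182.15, chr2:65457118-65567627, minus strand), averaged 1.97 ± 0.28 CPM per kb. Scn4b exceeded Scn1a in 15 of 17 libraries with overlapping ranges, and Scn1a exceeded Scn3a in 17 of 17. Some of this depends on the length used. Divided by the longest annotated transcript, Scn1a stood at 4.16 CPM per kb and Scn4b at 3.97, and Scn3b stood at 70.3 CPM per kb, with a range over libraries that overlapped that of Scn2b.

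Among the sodium channel genes outside the 7, Scn4a, Scn7a, Scn9a, Scn10a and Scn11a, channels of muscle, glia and sensory neurons, averaged at most 0.785 CPM each over the 17 libraries. Nalcn, a sodium leak channel, averaged 5.15 CPM per kb, between Scn2a and Scn4b. The plot of levels by gene shows the order of the 7 in each library.

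**Figure D1:**
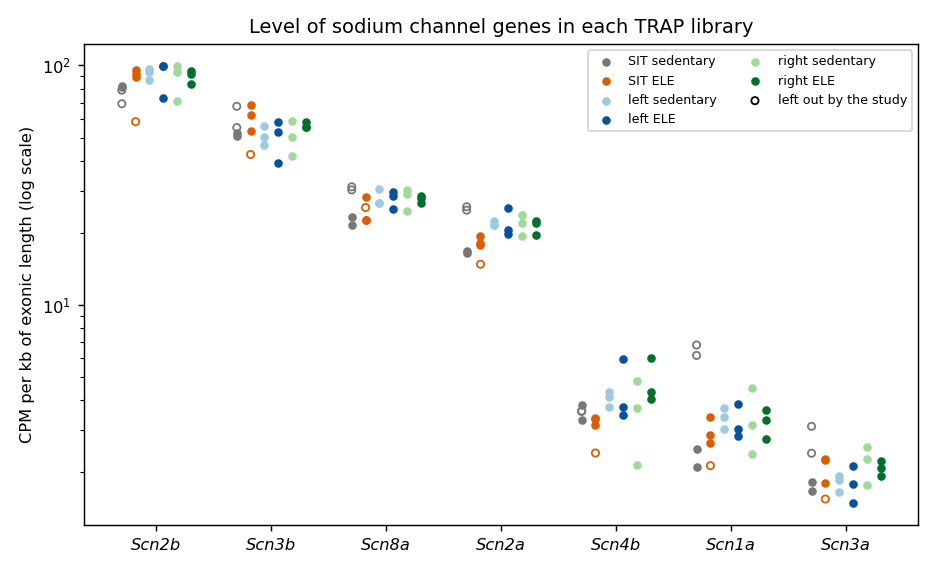
Level of the 7 sodium channel genes in CPM per kb of exonic length, on a log axis, with a point for each of the 20 TRAP libraries coloured by group and open points for the 3 set aside by the study. Scn2b and Scn3b sit highest, Scn8a and Scn2a lie close together, and Scn4b, Scn1a and Scn3a sit below them in every group.

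Over the 17 libraries, which pool groups and isolation designs, the coefficient of variation in CPM was 24.2% for Scn4b, 19.2% for Scn1a and 14.2% for Scn3a, the 3 scarce genes. It was 13.1% for Scn3b, 11.7% for Scn2a, 10.7% for Scn8a and 9.82% for Scn2b. Within single groups of 2 or 3 libraries the order changed. The coefficient for Scn4b ran from 3.35% in the SIT ELE group, where it was the lowest of the 7 genes, to 38.0% in the right sedentary group, where it was the highest. Scn4b ran from 10.7 to 30.0 CPM with a median of 18.7, and Scn1a from 23.4 to 50.1 CPM with a median of 33.9. Scn2a ran from 211 to 323 CPM with a median of 261, and Scn8a from 339 to 479 CPM with a median of 422. The widest ranges were thus those of Scn4b and Scn1a, whose highest library stood over 2 times above the lowest, while Scn2a and Scn8a stayed within a factor of 2.

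The make-up of the alpha subunit message was taken from the summed CPM per kb of the 4 alpha genes. Of this sum, Scn8a made up 50.9 ± 2.12% and Scn2a 39.3 ± 1.69% (SD, n = 17). Scn1a made up 5.96 ± 0.77% and Scn3a 3.79 ± 0.54%. In the 6 separately isolated ELE libraries the shares were 50.9% Scn8a, 39.6% Scn2a, 5.92% Scn1a and 3.57% Scn3a, and in the 6 sedentary ones 50.7, 39.6, 6.07 and 3.63% in the same order. These group means differed by less than the spread between libraries, which was 0.47 to 1.94 percentage points (SD) within each group. The libraries set aside departed from this make-up. Scn1a took up to 10.4% in the NT7.2 pair, and in the ELE library of mouse NT6.304 Scn8a stood 1.73 times above Scn2a, against 1.16 to 1.58 times in the 17.

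**Figure D2:**
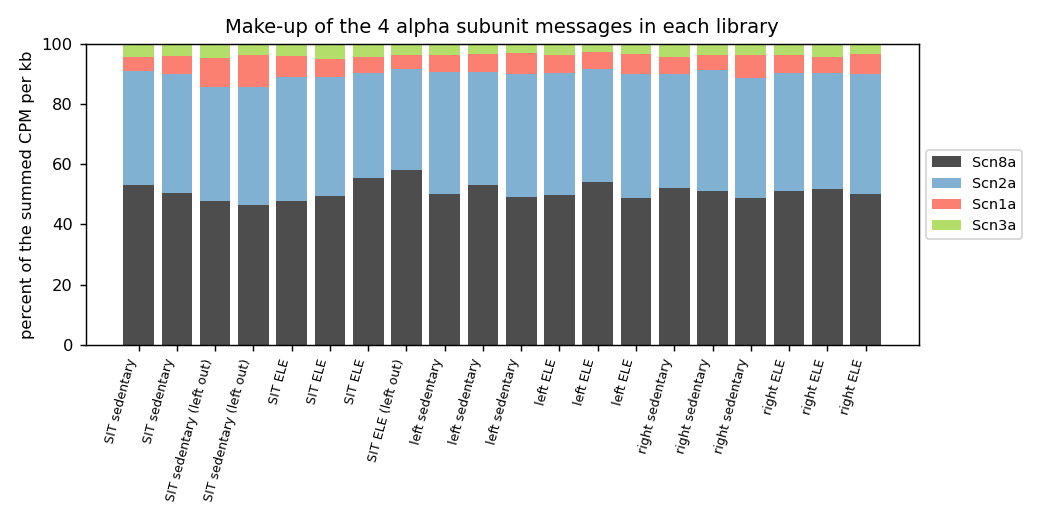
Share of each alpha subunit gene in the summed CPM per kb of the 4, in percent, with a stacked bar for each of the 20 TRAP libraries. Scn8a and Scn2a fill most of every bar, and the share of Scn1a is widest in the 2 SIT sedentary libraries set aside.

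The main comparison asks whether wheel running changed the ribosome-bound level of these genes, and it was made in each of 3 settings. A gene was called where edgeR's quasi-likelihood test gave an unadjusted p under 0.05 and a change over 1.3-fold. By that rule none of the 7 genes was called in the SIT libraries, where 3.73% of the 18238 genes tested were called, nor on the left (2.12% of 17750) or the right (2.00% of 17570). With both hemispheres together none was called either, against 2.06% of 18810 genes. Benjamini-Hochberg adjusted p-values from edgeR over all genes tested were between 0.906 and 1.0 for the 7 genes in each of these comparisons.

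In the SIT libraries the point estimates lay higher after ELE for 6 of the 7 genes. Scn1a was at 38.1, 31.9 and 29.6 CPM in the 3 ELE libraries and at 23.4 and 28.0 CPM in the 2 sedentary ones. Every ELE library was above both sedentary libraries, by a narrow margin between the closest 2. The log2 fold change was 0.37, with a 95% interval of 0.02 to 0.72 (edgeR, unadjusted p = 0.0413, adjusted p = 0.906), just under the 1.3-fold limit. Scn2a was at 247, 232 and 228 CPM after ELE and at 211 and 215 CPM in sedentary mice, again without overlap, with a log2 fold change of 0.15 (95% interval -0.05 to 0.35). Scn8a was at 355, 358 and 445 CPM after ELE against 367 and 339 CPM. Its groups overlapped, a single ELE library being well above the rest, and the log2 fold change was 0.13 (95% interval -0.12 to 0.38). Scn3a was at 22.5, 28.0 and 28.3 CPM after ELE against 22.7 and 20.9 CPM, overlapping at its lowest ELE library, with a log2 fold change of 0.27 (95% interval -0.08 to 0.62).

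Of the beta subunits, Scn2b was at 428.5, 416 and 446 CPM after ELE against 383 and 377 CPM in sedentary mice. Its groups did not overlap, and the log2 fold change was 0.18 (95% interval -0.01 to 0.36). Scn3b was at 291, 339 and 372 CPM after ELE against 285 and 278 CPM. These groups did not overlap either, although the lowest ELE library was close to the sedentary ones, and the log2 fold change was 0.25 (95% interval 0.00 to 0.49, edgeR, unadjusted p = 0.0497, adjusted p = 0.906). Scn4b was at 15.7, 16.6 and 16.8 CPM after ELE against 16.5 and 19.0 CPM. It was the only one of the 7 with a lower estimate, a log2 fold change of -0.12 (95% interval -0.47 to 0.23), and its groups overlapped.

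Thus 4 of the 7 genes had SIT groups that did not overlap, all higher after ELE, where 22.6% of all genes had groups that did not overlap and 11.1% did so with ELE higher. Without a limit on the fold, 2 of the 7 had an unadjusted p below 0.05, against 5.48% of all genes. The median log2 fold change of the 7 was 0.18 and that of all genes 0.00. In two-sided exact permutation tests of the mean log2 CPM the p-values of the 7 were between 0.1 and 0.6, and 0.1 is the smallest that 3 against 2 libraries allow. The 2 sedentary libraries came from NT6 mice, while only 1 of the 3 ELE libraries did and the other 2 came from TG7.4 mice, so the first part of the mouse number and exercise were partly mixed in this comparison.

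The direction for 4 of the 7 genes changed when all SIT libraries entered. With all 8 SIT libraries the log2 fold change of Scn1a turned from 0.37 to -0.65 (95% interval -1.43 to 0.12). Scn2a turned to -0.25, Scn3a to -0.18 and Scn8a to -0.09, while Scn2b was at 0.12, Scn3b at 0.01 and Scn4b at -0.21. None of the 7 was called with all libraries, against 7.84% of genes, and every pair of groups overlapped. The turn came from the NT7.2 pair, in which Scn1a stood at 68.6 and 75.8 CPM and Scn2a at 317 and 327 CPM, above the other SIT libraries. With that pair alone left out the log2 fold changes were 0.26 for Scn1a, 0.07 for Scn2a, 0.17 for Scn3a, 0.15 for Scn8a, 0.04 for Scn2b, 0.13 for Scn3b and -0.22 for Scn4b. Within the 4 NT6 mice alone, 2 in each group, they were 0.27, 0.03, -0.06, 0.10, -0.12, -0.10 and -0.35 in the same order, so that 3 of the 7 were higher after ELE. Scn1a became a call when ELE mouse TG7.4.2 was left out (log2 fold change 0.44, edgeR, unadjusted p = 0.0159) and when sedentary mouse NT6.306 was (0.51, edgeR, unadjusted p = 0.0454). In the latter fit a single sedentary library remains, which is assumed to vary like the ELE ones. It was also called when mice with a shared number prefix were taken as a replicate block (0.56, edgeR, unadjusted p = 0.0151, adjusted p = 0.820), where TG7.4 holds ELE mice only and the estimate therefore rests on the single ELE mouse NT6.303 against the 2 sedentary NT6 mice. It was called in no other SIT setting.

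Some cell type markers were called in this comparison as well, although no gene tested had an adjusted p under 0.05 by edgeR. Of the 7 interneuron markers 6 were lower after ELE, with 1 called (Pvalb), and the summed level of the list was 64.6 to 77.8 CPM in the ELE libraries and 76.8 to 77.3 CPM in the sedentary ones. Of 4 choroid plexus markers 3 were called lower (Folr1, Kl and Kcne2), and of 3 dentate granule cell markers 2 were called higher (Prox1 and Dsp). Of all genes, 2.17% were called lower and 1.57% higher. The choroid plexus sum was 123 to 561 CPM after ELE and 565 to 655 CPM in sedentary mice. The granule cell sum was 457 to 550 CPM against 372 to 501 CPM, with overlap. With all SIT libraries all 7 interneuron markers and all 4 choroid plexus markers were called lower, and of the granule cell markers Prox1 alone was called. In that setting 7.84% of all genes were called in either direction. The part of these cell types in the sodium channel values was not tested. The 2 NT7.2 libraries, on which the turn in direction rested, were also those with the interneuron, microglial and oligodendrocyte markers and the mitochondrial share above all other libraries, and there too the part of other cells was not tested. Pearson's r of the interneuron marker sum with Scn1a was 0.62 over all 20 libraries, -0.57 over the 17 compared and -0.32 over the 12 separate ones. With Scn2a it was 0.26, -0.73 and -0.38 in the same order. The sum of the excitatory markers ran with Scn8a at 0.62, 0.87 and 0.71 and with Scn2a at 0.51, 0.75 and 0.18, and that of 2 oligodendrocyte precursor markers with Scn2a at 0.81, 0.74 and 0.79. These are descriptions of points that share library and isolation design.

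**Figure D3:**
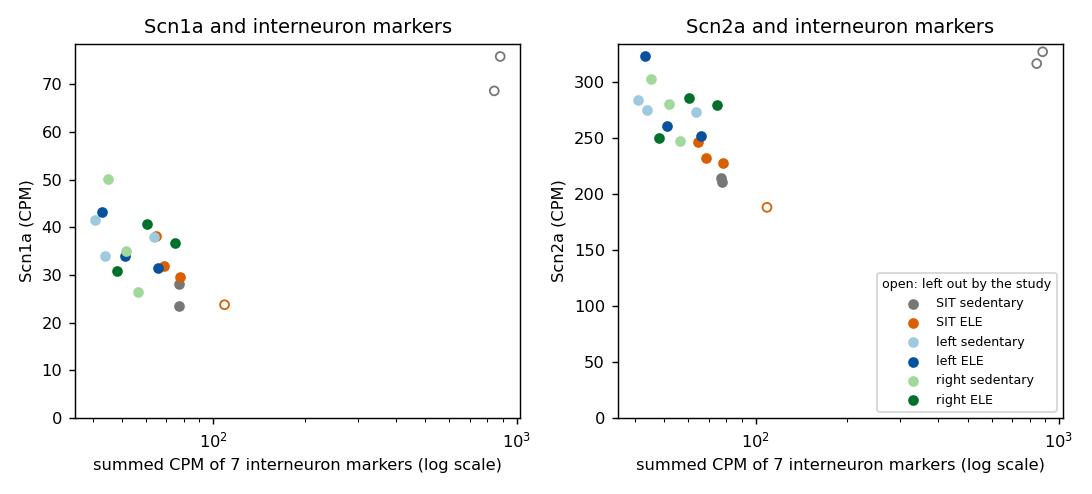
CPM of Scn1a (left) and Scn2a (right) against the summed CPM of 7 interneuron markers on a log axis, with a point per library. The 2 open grey points at 844 and 883 CPM of marker signal, set aside by the study, are highest for Scn1a. For Scn2a they are at 317 and 327 CPM, and the left ELE library of mouse TG9.2.2 lies between them at 323 CPM. Over the 17 filled points Pearson's r is -0.57 and -0.73, and over the 12 from separate isolation -0.32 and -0.38.

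In the separately isolated libraries the 2 groups of mice overlapped for every one of the 7 genes on each side, where groups did not overlap for 10.9% (left) and 7.22% (right) of all genes. On the left Scn2a was at 261, 252 and 323 CPM after ELE and at 275, 273 and 284 CPM in sedentary mice. Its ELE group held both the lowest and the highest of the 6 values, and the log2 fold change was 0.00 (95% interval -0.23 to 0.23). Scn8a was at 397, 449 and 468 CPM after ELE against 419.6, 479 and 422 CPM, also interleaved, with a log2 fold change of -0.01 (95% interval -0.22 to 0.20). Scn1a was at 33.9, 31.5 and 43.1 CPM after ELE against 33.9, 38.0 and 41.5 CPM, with a log2 fold change of -0.07 (95% interval -0.38 to 0.25). All 7 estimates on the left lay between -0.07 and 0.10. For 6 of the 7 genes the 95% interval on the left lay between -0.38 and 0.31 on the log2 scale, and for Scn4b it ran from -0.35 to 0.55.

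On the right the alpha subunits were again level. Scn2a was at 280, 250.0 and 286 CPM after ELE against 280, 248 and 303 CPM, with a log2 fold change of -0.03 (95% interval -0.25 to 0.20). The values ran alongside each other over nearly the same range. Scn1a, Scn3a and Scn8a gave -0.05, -0.07 and -0.01. Of the beta subunits Scn2b gave 0.03 and Scn3b 0.16 (95% interval -0.10 to 0.42).

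Scn4b gave the widest difference on the right. It was at 30.0, 20.1 and 21.6 CPM after ELE and at 18.4, 10.7 and 24.1 CPM in sedentary mice. One ELE library lay above all others and one sedentary library below all others, with the remaining 4 interleaved. The log2 fold change was 0.43 (95% interval -0.15 to 1.02, edgeR, unadjusted p = 0.129, adjusted p = 1.0), and a two-sided exact permutation test gave p = 0.4. Scn4b on the right crossed the call rule in 3 alternative settings: with the number prefix (TG7.3, TG9.1 or TG9.2) as a replicate block (0.49, edgeR, unadjusted p = 0.0468), without the filter on low counts (0.43, unadjusted p = 0.0201) and without sedentary mouse TG9.2.3 (0.72, unadjusted p = 0.0226). On the left Scn4b was at 18.7, 17.3 and 29.5 CPM after ELE against 18.7, 20.6 and 21.6 CPM, a log2 fold change of 0.10. The difference between the sides was itself tested as an interaction and gave -0.33 for left minus right (95% interval -1.13 to 0.47, edgeR, unadjusted p = 0.39). None of the 7 genes was called for that interaction, against 2.21% of all genes.

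With the 6 ELE and 6 sedentary libraries of both sides in one fit with hemisphere as a term, the intervals narrowed. Scn2a changed by -0.01 on the log2 scale (95% interval -0.16 to 0.14) and Scn8a by -0.01 (95% interval -0.14 to 0.12). Scn1a changed by -0.06 (95% interval -0.34 to 0.23) and Scn3a by -0.04 (95% interval -0.26 to 0.18). Scn2b changed by -0.00 (95% interval -0.19 to 0.19) and Scn3b by 0.07 (95% interval -0.14 to 0.28). For these 6 genes every interval lay inside a 1.3-fold change in either direction. Scn4b, at a lowest, median and highest of 17.3, 20.9 and 30.0 CPM after ELE and 10.7, 19.7 and 24.1 CPM in sedentary mice, changed by 0.27 (95% interval -0.13 to 0.66). Its groups overlapped over most of their range. Two-sided exact permutation tests within hemisphere gave p-values from 0.285 to 1 for the 7 genes, where 0.005 is the smallest possible. The combined comparison shares its libraries with the left and the right comparison and is not independent of them.

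**Figure D4:**
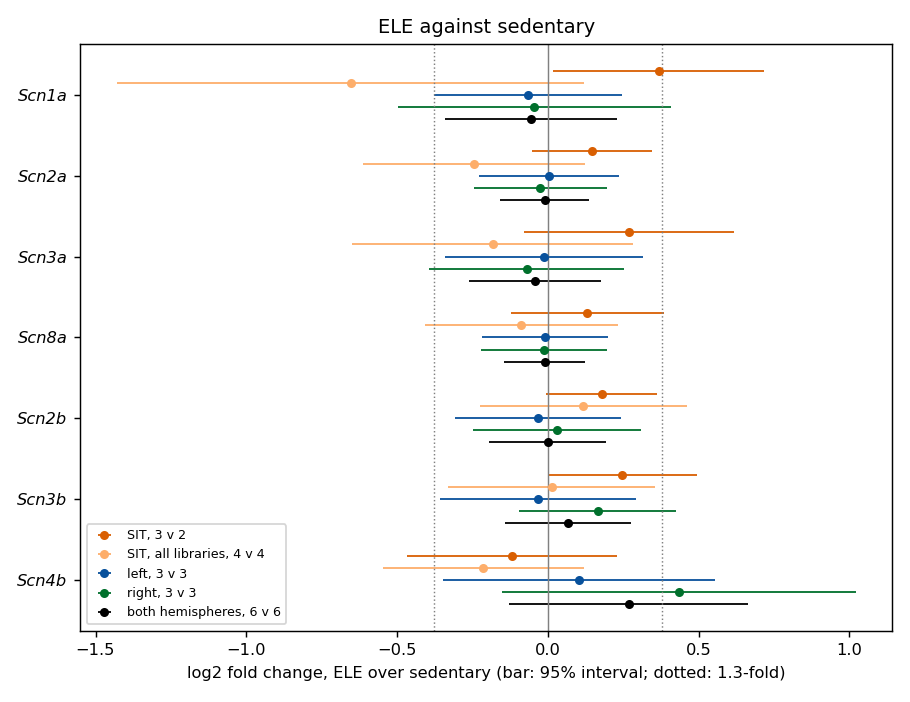
Log2 fold change of ELE over sedentary for each of the 7 genes, with bars for the 95% interval from edgeR, in the SIT libraries compared, all SIT libraries, the left, the right and both hemispheres. Estimates from the separate libraries lie close to 0 for the alpha subunits, and the SIT estimates of Scn1a change side with the libraries included.

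Whether the exercise difference in SIT mice was different from that in separately isolated mice was tested as one contrast over the 17 libraries. None of the 7 genes was called, against 4.19% of all genes. The contrast was 0.43 for Scn1a (95% interval -0.09 to 0.95, edgeR, unadjusted p = 0.102), 0.31 for Scn3a, 0.16 for Scn2a, 0.15 for Scn8a and 0.18 for Scn2b and Scn3b alike. Scn4b went the other way, at -0.38 (95% interval -1.04 to 0.28). Scn1a was called in this contrast without the filter on low counts (unadjusted p = 0.0112), without right sedentary mouse TG9.1.1 (0.52, unadjusted p = 0.0242) and with the replicate block (0.62, unadjusted p = 0.00945), all by edgeR. With all SIT libraries the contrast was -0.61 for Scn1a, -0.25 for Scn2a, -0.15 for Scn3a, -0.089 for Scn8a, 0.11 for Scn2b, -0.064 for Scn3b and -0.49 for Scn4b.

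The proteins that hold and tune the channels were also followed, from lists of 6 other sodium channel genes, 4 fibroblast growth factor homologous factors (Fgf11 to Fgf14, which bind the channel's tail), 8 initial segment and node proteins and 14 regulators of channel RNA or protein. None of these genes was called in any of the 4 comparisons of ELE with sedentary mice. Of all genes, 3.73% were called in SIT libraries, 2.12% on the left, 2.00% on the right and 2.06% with both hemispheres. At such shares, the absence of calls in lists this short says little. Sptan1, a spectrin of the membrane skeleton, was called lower after ELE when all SIT libraries were used, where 7.84% of all genes were called. In SIT libraries Nrcam, a cell adhesion molecule of the initial segment, had a log2 fold change of 0.23 (edgeR, unadjusted p = 0.0376) and Celf4, an RNA-binding protein known to bind sodium channel messages, one of -0.32 (edgeR, unadjusted p = 0.0457), both under 1.3-fold. With all SIT libraries Nrcam was at 0.013 and Celf4 at -0.37. With both hemispheres together Fgf14 had a log2 fold change of -0.26 (95% interval -0.49 to -0.04, edgeR, unadjusted p = 0.0237, adjusted p = 0.924). Without a limit on the fold, 5.48% of all genes in the SIT libraries compared and 5.31% with both hemispheres had an unadjusted p under 0.05 by edgeR. Ank3, which encodes the ankyrin-G scaffold that anchors the channels, was at 0.09 in the SIT libraries compared, -0.081 in all SIT libraries and -0.02 with both hemispheres. The median log2 fold change of the 8 initial segment genes was 0.09 in SIT libraries and -0.01 with both hemispheres, beside all-gene medians of 0.00 in each.

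The left and right hippocampus of sedentary mice were compared next. None of the 7 genes was called, against 1.71% of all genes. Scn3a had the widest difference, at 24.1, 23.1 and 20.6 CPM on the left and 31.8, 22.0 and 28.2 CPM on the right. A single right library lay within the left range and the other two above it, for a log2 fold change of -0.27 left over right (95% interval -0.58 to 0.04, edgeR, unadjusted p = 0.0809). Without right sedentary mouse TG9.1.1 Scn3a was called lower on the left (-0.41, edgeR, unadjusted p = 0.00368). Scn2a and Scn8a differed by 0.00 and -0.00 between the sides, with 95% intervals of -0.20 to 0.20 and -0.22 to 0.22. Scn1a gave 0.02, Scn2b 0.07, Scn3b 0.02 and Scn4b 0.20.

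The isolation designs were compared in sedentary mice, where Scn2a and Scn8a were lower in SIT libraries. Scn2a was at 211 and 215 CPM in the 2 SIT libraries and at 248, 278 and 303 CPM (lowest, median and highest) in the 6 separate ones. No separate library was as low as a SIT library, and the log2 fold change of SIT over separate was -0.38 (95% interval -0.55 to -0.21, edgeR, unadjusted p = 0.000363, adjusted p = 0.00843). Scn8a was at 367 and 339 CPM against 390.3, 439 and 479 CPM, likewise without overlap, with a log2 fold change of -0.32 (95% interval -0.51 to -0.13, edgeR, adjusted p = 0.0311) that was under 1.3-fold. Scn1a was at 23.4 and 28.0 CPM against 26.5, 36.5 and 50.1 CPM. These overlapped at 1 SIT library, and the log2 fold change was -0.54 (95% interval -0.95 to -0.14, edgeR, unadjusted p = 0.0124, adjusted p = 0.0731).

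By the call rule Scn1a and Scn2a were lower in SIT libraries, 2 of the 7, where 10.2% of the 18911 genes tested were called lower and 15.9% in either direction. An adjusted p under 0.05 was found for Scn2a and Scn8a, where 13.6% of all genes had one. Groups did not overlap for 2 of the 7, Scn2a and Scn8a, both lower, against 35.0% of all genes in either direction and 18.5% lower. For these 2 the two-sided exact permutation p was 0.0357, the smallest that 2 against 6 libraries allow. The other genes gave -0.19 for Scn3a, -0.15 for Scn2b, 0.03 for Scn3b and -0.10 for Scn4b. The call for Scn2a rested on a fold of 1.3, at the limit. It was lost under the slightly stricter fold limit of the study's methods, and the estimate fell just under it without SIT mouse NT6.305 (-0.37), left mouse TG9.2.4 (-0.37) or right mouse TG9.2.3 (-0.35). Without NT6.305 Scn1a was not called (-0.42, edgeR, unadjusted p = 0.119) and Scn8a was (-0.38, edgeR, unadjusted p = 0.0102), in a fit where the 1 remaining SIT library is assumed to vary like the separate ones. With all 4 SIT sedentary libraries Scn8a was at -0.079 (95% interval -0.33 to 0.17, edgeR, adjusted p = 0.719) with overlapping groups, and Scn2a at -0.057, with overlapping groups as well. Scn1a was then at 0.38, Scn3a at 0.17, Scn2b at -0.22, Scn3b at 0.15 and Scn4b at -0.097, and none of the 7 was called, against 16.3% of genes. The SIT sedentary mice are also the control group of the SIT exercise comparison, so the lower Scn1a and Scn2a values here and the higher estimates after ELE there rest on the same 2 libraries. Isolation design, the first part of the mouse number (NT6 against TG7.3, TG9.1 and TG9.2) and the use of both hippocampi or of one cannot be told apart in this comparison.

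Of the 8 initial segment and node genes all had lower estimates in SIT libraries, where 49.2% of all genes had higher ones, and 2 of the 8 were called, against 10.2% of all genes called lower, with a median log2 fold change of -0.27 beside -0.01 for all genes. These were Sptan1 (-0.55, edgeR, adjusted p = 0.0342) and Kcnq3 (-0.47, edgeR, adjusted p = 0.0277), a potassium channel of the M-current. With all 4 SIT sedentary libraries 5 of the 8 were lower and none was called. All 7 interneuron markers were called higher in SIT libraries, by 0.42 to 1.51 on the log2 scale, against 5.78% of all genes, and with all 4 SIT sedentary libraries by 2.11 to 4.88. In the libraries compared 4 of 5 astrocyte markers were called lower. Of the 5 excitatory markers Camk2a was called lower, and the summed level of the 5 was 6098 to 6214 CPM in the 2 SIT libraries against 7763 to 9202 CPM in the 6 separate ones, without overlap. The sum of 2 CA1 pyramidal cell markers was 381 to 409 CPM against 427 to 505 CPM, likewise without overlap, and mitochondrial genes took 0.245 to 0.426% of counts in the 2 SIT libraries against 0.0704 to 0.103% in the 6 separate ones. The part of these in the sodium channel values was not tested.

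**Figure D5:**
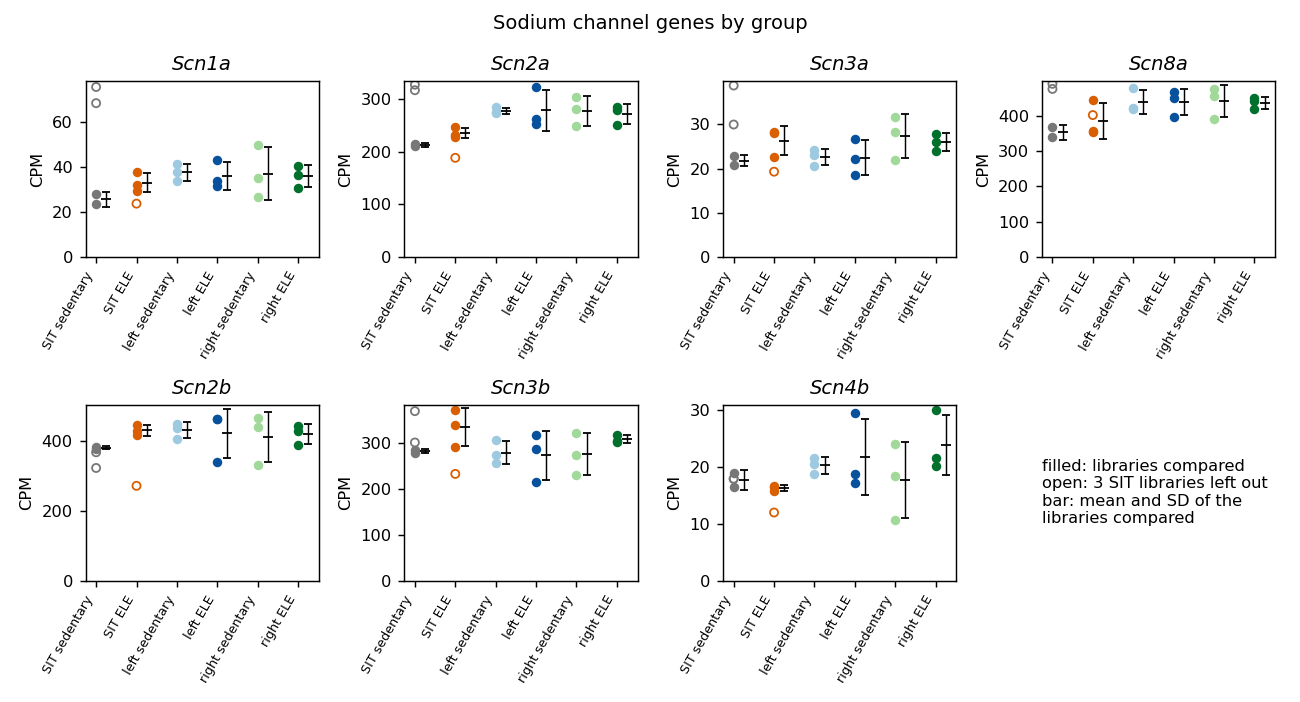
CPM of each of the 7 genes by group, with a point per library, filled for the 17 libraries compared and open for the 3 set aside, and bars for the mean and SD of the filled points. ELE and sedentary points interleave on the left and the right. The filled SIT sedentary points of Scn2a and Scn8a lie below those of the separately isolated sedentary groups, while the open ones do not.

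Across libraries the genes did not all vary together. Over the 17 libraries the highest correlation of log2 CPM was that of Scn1a with Scn2a (Pearson r 0.86, Spearman rho 0.85), which was 0.88 (Pearson) over the 12 separate libraries alone. Scn3a and Scn3b came next at 0.75, with 0.75 again over the 12. Scn2a and Scn8a stood at 0.73 and 0.58, and Scn2a and Scn3b at -0.01 and 0.50. The points in each case share their library, with its depth, cell make-up and isolation design, and the values are given as a description.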

How the data were processed

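TRAP libraries of Emx1-NuTRAP mice were analysed. The deposited values are raw counts per gene, made by the authors with STAR 2.7.3a, removal of duplicate reads and strand-aware counting on GENCODE genes of GRCm38, as the labels' processing notes and the study's methods state. The deposited columns carry mouse numbers, which were placed in groups through the study's own mouse table and the labels, and 24 columns of wild-type mice were not used. The 5 SIT libraries compared were found as the 1 of 24 subsets whose mean normalized counts match 633 of 633 genes in the study's lists. The members and gene lists were chosen with earlier results of these data known.

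Counts were fitted with edgeR 4.0.16 (R 4.3.3, TMM, filterByExpr, glmQLFTest) over all genes and p-values were Benjamini-Hochberg adjusted. A call needed an unadjusted p under 0.05 and 1.3-fold, as in one of the study's legends, and the slightly stricter fold limit of its methods was an alternative. CPM used TMM library sizes, and exact permutation tests used log2(CPM + 0.5). DESeq2 1.42.0, its size factors, no filter, other SIT libraries and a replicate block were alternatives. The fits were tested on simulated counts. Totals were 45895097 to 65767802 counts per library, which limits counting error only. P-values measure the spread between mice. The 7 genes were named in every comparison, and other genes where called or, at most 4 per list, for level or role. Replicates of a group differed beyond counting noise in all 24 pairs. Some genes of the lists and some sequences are not reported here.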

Additional observations from a re-analysis of the deposited data

How the results depend on the processing

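Of the values for the 7 genes under settings other than leaving out a library, 282 of 308 kept both their direction and their side of the call rule, 19 changed direction, 1 of them with loss of its call (Scn1a in SIT against separate isolation), and with direction kept 5 became calls and 2 lost their call. Choosing all SIT libraries gave 1375 called genes in place of 681 for exercise and turned Scn1a to -0.65, Scn2a to -0.25, Scn3a to -0.18 and Scn8a to -0.088. It turned Scn1a to 0.38 and Scn3a to 0.17 in SIT against separate isolation. In the contrast of exercise between isolation designs it gave 1476 called genes in place of 853 and turned Scn1a to -0.61, Scn2a to -0.25, Scn3a to -0.15, Scn8a to -0.089 and Scn3b to -0.064. The 4 NT6 mice alone, an alternative added after seeing the data, gave 1196 called genes and turned Scn3a to -0.059, Scn2b to -0.12 and Scn3b to -0.10. All SIT libraries without each of the 3 set aside in turn, and without the 2 richest in mitochondrial counts, were added after seeing the data as well. Without the filter on low counts, which tests more genes, 703 genes were called on the left (main 376), 719 on the right (351), 972 with both hemispheres (387), 1047 for the interaction (416), 730 for left against right (303) and 1425 for the contrast between designs (853). Scn2b with both hemispheres crossed 0 on the log2 scale to 0.000789 with DESeq2 or its size factors. Divided by the longest transcript, mean levels were 4.16 CPM per kb for Scn1a, 29.3 for Scn2a, 2.57 for Scn3a, 36.7 for Scn8a and 70.3 for Scn3b. The cause of these moves was not tested.

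Mice whose numbers share a first part were taken as a possible replicate block, since the table's columns carry no replicate number. On the left the deviations of such pairs correlated at 0.125 to 0.375, over 0.1 in 3 of 3 pairs, and on the right at -0.126 to 0.416, over 0.1 in 1 of 3. With the replicate block 327 genes were called on the left and 308 on the right, Scn2a on the left was at -0.0050 in place of 0.00, Scn2b with both hemispheres was at 0.0021, and Scn4b on the right became a call (0.49). In the separate libraries the block changed no other call among the 7 genes. In the SIT exercise comparison and the contrast between designs the TG7.4 block holds 1 group only, so this block was added after seeing the data. It gave 944 called genes for SIT and 1127 for the contrast, made Scn1a a call in both (0.56 and 0.62) and turned Scn3b in the contrast to -0.0091. For SIT against separate isolation no paired analysis was possible because each block lies within 1 isolation design.

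Leaving out 1 of the 5 SIT libraries compared gave 357 to 1122 called genes and no change of direction, with Scn1a at 0.24 to 0.51. Counting also all SIT libraries less 1 of the 3 set aside, the range for SIT exercise was 357 to 1281 called genes and log2 fold changes of Scn1a -0.55 to 0.51, Scn2a -0.17 to 0.17, Scn3a -0.15 to 0.37, Scn8a -0.11 to 0.19 and Scn3b -0.00098 to 0.34. Leaving out 1 library at a time gave for the left hippocampus 225 to 975 called genes and log2 fold changes of Scn1a -0.21 to 0.022, Scn2a -0.11 to 0.069, Scn3a -0.15 to 0.11, Scn8a -0.058 to 0.055, Scn2b -0.10 to 0.098, Scn3b -0.15 to 0.11 and Scn4b -0.17 to 0.24. It gave for the right hippocampus 311 to 657 called genes and log2 fold changes of Scn1a -0.25 to 0.23, Scn2a -0.11 to 0.042, Scn3a -0.21 to 0.051, Scn8a -0.10 to 0.047 and Scn2b -0.11 to 0.12. Likewise it gave for both hemispheres together 337 to 647 called genes and log2 fold changes of Scn1a -0.14 to 0.063, Scn2a -0.066 to 0.021, Scn3a -0.11 to 0.015, Scn8a -0.048 to 0.018 and Scn2b -0.065 to 0.060. It gave for the interaction of exercise and hemisphere 357 to 727 called genes and log2 fold changes of Scn1a -0.30 to 0.17, Scn2a -0.093 to 0.10, Scn3a -0.083 to 0.19, Scn8a -0.059 to 0.085 and Scn2b -0.16 to 0.072. Likewise it gave for left against right 264 to 662 called genes and log2 fold changes of Scn1a -0.17 to 0.30, Scn2a -0.071 to 0.073, Scn8a -0.084 to 0.056, Scn2b -0.067 to 0.16, Scn3b -0.096 to 0.14 and Scn4b -0.066 to 0.48. It gave for SIT against separate isolation log2 fold changes of Scn3b -0.022 to 0.074 and Scn4b -0.22 to 0.00076.

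Of 504 values of the 7 genes with 1 of the libraries compared left out, 417 kept direction and call, 77 changed direction (none in SIT exercise), 6 became calls and 4 lost theirs. In the separate libraries most main estimates of the 7 genes lay close to 0, so that small shifts change their sign. Where a SIT sedentary library is left out, the 1 remaining is assumed to vary like the other groups. With 2 or 3 libraries in a group, exact permutation tests could not reach 0.05 in the SIT, left, right and left-against-right comparisons. Counting error was small at this depth, since the scarcest gene, Scn4b, had at least 528 counts in each library.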

Other observations

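For each of the 7 genes the 2 genes with the most similar log2 CPM over the 17 libraries compared were taken from 9563 genes averaging at least 10 CPM. Scn1a was nearest to Megf9 (Pearson r 0.933) and to Kcnd2 (0.932), which encodes a transient potassium channel of dendrites. Scn2a was nearest to Glg1 (0.957) and Astn1 (0.942), an adhesion protein of migrating neurons. Scn8a was nearest to Map1a (0.931), a microtubule-associated protein of mature neurons, and Hsd11b1 (0.900). Scn3a was nearest to Lrrn1 (0.804) and Kcnj11 (0.796), the pore subunit of ATP-sensitive potassium channels.

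Of the beta subunits, Scn2b was nearest to Rbl2 (0.920) and St6galnac5 (0.914), Scn3b to Gm3888 (0.912) and Rph3a (0.889), a synaptic vesicle protein, and Scn4b to Irak2 (0.827) and Sort1 (0.827), a sorting receptor. Of these 14 genes 5 were still among the nearest 2 when all 20 libraries were used and 1 when only the 12 separate libraries were. The points share library, depth and isolation design, and nothing about shared control follows from the likeness.

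Scn2b ran against the summed level of 5 astrocyte markers (Aqp4, Slc1a3, Aldh1l1, Gja1 and Gfap), with Pearson's r of -0.91 over the 12 separate libraries, -0.52 over the 17 and -0.33 over all 20. Over the 12 it also ran at -0.76 with the summed striatal projection neuron markers and at 0.78 with those of oligodendrocyte precursors. The astrocyte sum itself ran from 2241 to 5071 CPM over the 12. The astrocyte correlation was singled out after its value was seen.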
